A study of Homo sapiens with 6 samples.

Results

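The genes described here are 9 genes of the actin cytoskeleton, *ACTB*, *ACTG1*, *MYH9*, *MYL9*, *TPM1*, *TPM2*, *TPM4*, *FLNA* and *TAGLN*, which were taken by their symbols from the 21462 genes of the deposited count table. Levels were compared between A431CT cells, the control A431 line with the genotype WT, and Dsg2KO cells, A431 cells in which *DSG2* was knocked out by CRISPR/Cas9 editing, with 3 libraries of each. A431 is a human epidermoid carcinoma line with keratinocyte features, and both lines were grown in DMEM with fetal bovine serum and without drug or siRNA. All Dsg2KO libraries come from an edited line, whose number of clones is not given in the sources used here, so loss of Dsg2 and other differences between the lines cannot be told apart. The paper calls the 3 libraries of each line biological replicates, the labels do not say how they were obtained, and p-values measure the spread between them.

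Polyadenylated RNA was sequenced, and total counts lay between 12845719 and 16255692 per library. Levels are given as CPM, the counts of a gene scaled by TMM to a common library size, and the 12857 genes above a low-count filter entered the quasi-likelihood test of edgeR. A gene passed both of the study's thresholds with a Benjamini-Hochberg adjusted p-value under 0.05 over all genes tested and 0.5 or more, up or down, as its log2 fold change. The verbs rose and fell are used below for genes that passed the adjusted p-value, with or without the fold minimum. The targeted gene *DSG2* was at 323 ± 6.08 CPM (SD, n = 3) in A431CT cells and 51.9 ± 2.88 CPM (SD, n = 3) in Dsg2KO cells. The summed level of 8 keratinocyte markers lay between 2305 and 2372 CPM in A431CT and between 2129 and 2192 CPM in Dsg2KO cells, and 1 of them, *KRT14*, had at most 2 counts in any library. Of the 7 tested, *CDH1* rose, *KRT5*, *KRT6A* and *SFN* fell and 3 did neither, against 29.6% of all genes tested in either direction. *KRT6A* also passed both thresholds, with a log2 fold change of -1.03 (edgeR adjusted p = 0.00056).

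Actin monomers polymerize into filaments, and in non-muscle cells these are built from β-actin and γ-actin. Filaments are coated by tropomyosins, cross-linked by filamins and pulled by non-muscle myosin II, whose regulatory light chains switch the motor on when they are phosphorylated. In keratinocytes such bundles line cell-cell junctions and form the stress fibers that end at focal adhesions. Many of these genes are known targets of SRF, a transcription factor that binds the CArG box and is switched on by its actin-sensing partners MRTF-A and MRTF-B when free actin monomer becomes scarce. The study treated Dsg2-deficient cells with an inhibitor of SRF signaling, among others, and the comparison here asks how the actin genes differ between the untreated lines.

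Because SRF sites are the sequence feature best known for this gene group, promoters were read for the CArG box, a run of 10 bases that reads as the same pattern on both strands. RefSeq promoters of the build GRCh38.p14, from 250 bases before to 50 bases after each annotated start, were held for 6 of the 9 genes, in 9 entries. The genes *ACTB*, *MYL9* and *TAGLN* had no entry. A match was present in 3 of the 9 entries, 1 each for *ACTG1*, *TPM4* and *FLNA*, and in 1.29% of all 35116 promoters. The windows of these 3 genes follow, 60 bases each on the strand of the gene, with the CArG match in capitals.
ACTG1, chr17:81512859-81512918, minus strand, match starting 94 bases before the start: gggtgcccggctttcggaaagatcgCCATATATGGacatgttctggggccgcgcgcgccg
FLNA, chrX:154374694-154374753, minus strand, match starting 94 bases before the start: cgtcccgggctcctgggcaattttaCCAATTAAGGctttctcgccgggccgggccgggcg
TPM4, chr19:16067340-16067399, plus strand, match starting 173 bases before the first of its 3 annotated starts: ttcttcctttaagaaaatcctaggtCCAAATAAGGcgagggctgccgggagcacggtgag
The other 2 entries of *TPM4*, both entries of *TPM2* and those of *TPM1* and *MYH9* held no match. Counts per gene do not show which start was used, and a match is a description of the sequence only. In GENCODE version 44 no exon overlaps the windows of *ACTG1* and *TPM4*, and an exon of an opposite-strand gene, ENSG00000285018, overlaps that of *FLNA*.

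None of the 9 genes passed both thresholds, against 6.03% of all genes tested (2.99% in the upward and 3.03% in the downward direction). With the adjusted p-value alone 6 of the 9 passed, against 29.6% of all genes tested, and of these *TPM1* rose while *ACTB*, *ACTG1*, *TPM2*, *TPM4* and *FLNA* fell. Of all genes tested 14.3% rose and 15.3% fell by this rule. At an unadjusted p-value under 0.05 there were 8 genes, against 39.5% of all genes tested, and 1 of them, *TAGLN*, also reached the fold minimum, against 7.3%. With DESeq2, 0 of the 9 genes passed both thresholds and 6 passed the adjusted p-value. For 7 of the 9 genes the conditions had no library in each other's range, 1 gene higher and 6 lower in Dsg2KO cells, against 42.6% of all genes tested (21.2% higher and 21.4% lower). The median log2 fold change of the 9 genes was -0.11, and that of all genes tested was -0.0048. Of the 9 genes 8 had a mean level of at least 50 CPM, and among the 4961 genes tested at such levels 41.0% passed the adjusted p-value and 2.44% passed both thresholds.

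**Figure D1:**
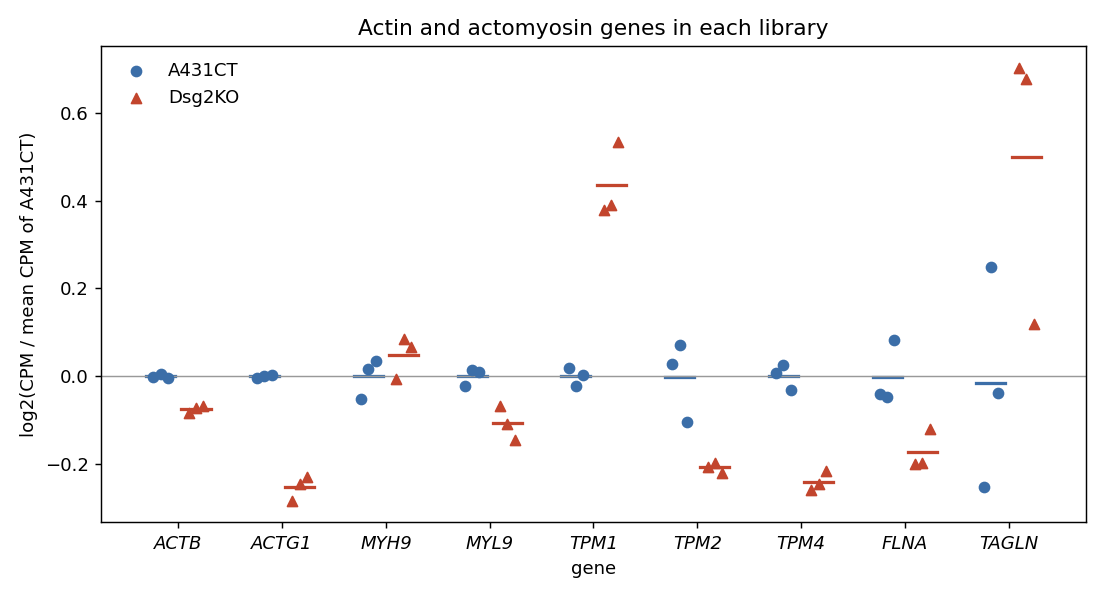
Level of each gene in each library, as the log2 of its CPM over the mean CPM of the A431CT libraries, with circles for A431CT, triangles for Dsg2KO and lines for the mean of the 3 log2 values. With TMM scaling the Dsg2KO libraries lie above all A431CT libraries for *TPM1* and below them for *ACTB*, *ACTG1*, *MYL9*, *TPM2*, *TPM4* and *FLNA*, whose log2 fold changes turn positive when counts are scaled to *GAPDH*.

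Both actin genes fell in Dsg2KO cells, *ACTG1* by more than *ACTB*. *ACTB* (GRCh38 chromosome 7, 5526409 to 5563902, minus strand) encodes β-actin. It was at 4653, 4677 and 4645 CPM in the A431CT libraries and at 4397, 4427 and 4442 CPM in the Dsg2KO libraries. All Dsg2KO libraries lay below all A431CT libraries, and the mean fell by 5.07%. On the log2 scale the difference was -0.08, with a standard error of 0.02 (edgeR adjusted p = 0.0137). This call was lost when A431CT replicate 1 (edgeR adjusted p = 0.0620) or Dsg2KO replicate 1 (edgeR adjusted p = 0.0701) was left out. With all libraries kept it was also lost under total-count scaling (edgeR adjusted p = 0.0705) and without the low-count filter (edgeR adjusted p = 0.0692). The same held for edgeR's likelihood ratio test (adjusted p = 0.132). Over the alternatives other than the *GAPDH* scale the adjusted p-values lay between 0.00799 and 0.132.

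*ACTG1* (chromosome 17, 81509413 to 81523847, minus strand) encodes γ-actin, which differs from β-actin by a few residues near its amino terminus. Its levels were 4049, 4062 and 4064 CPM in A431CT and 3334, 3425 and 3458 CPM in Dsg2KO cells. The gap between the conditions was wider than the spread within either, and the mean fell by 16.1%. On the log2 scale the difference was -0.25, with a standard error of 0.02 (edgeR adjusted p = 1.63e-06), the smallest p-value of the 9 genes. Within each library, *ACTG1* took 46.5%, 46.5% and 46.7% of the counts of both actin genes in A431CT and 43.1%, 43.6% and 43.8% in Dsg2KO cells. This share does not depend on how libraries are scaled, and it was lower by 3.06 percentage points in Dsg2KO cells (exact permutation test over the libraries, 2-sided, p = 0.1, the smallest that 3 against 3 allows; 0.11 after adjustment over 11 shares).

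The other actins were near or at 0. *ACTC1* and *ACTG2*, the cardiac and the enteric smooth muscle actin, had no count in any library, which allows a level of up to between 0.184 and 0.236 CPM, and *ACTA1* of skeletal muscle had a count of 1 in 1 library. *ACTA2*, the vascular smooth muscle actin, had between 3 and 9 counts in every library. Actin reads can also be placed on genes that carry an actin sequence. *POTEE*, a gene with an actin-like end, had between 310 and 545 counts, and *ACTBL2* had at most 1, against at least 49683 counts of either actin gene. How reads that match several such genes were assigned is not given in the sources used here.

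The myosin genes among the 9 did not pass the test on the TMM scale. *MYH9* (chromosome 22, 36281280 to 36388010, minus strand) encodes the heavy chain of non-muscle myosin IIA. It was at 640, 671 and 680 CPM in A431CT cells and at 660, 703 and 695 CPM in Dsg2KO cells. The libraries overlapped, and the log2 fold change was 0.05 (95% interval -0.03 to 0.13, adjusted p = 0.34, edgeR's quasi-likelihood test). It was 0.024 without A431CT replicate 1 and 0.078 without Dsg2KO replicate 1, and did not pass the test in either case. The heavy chains of myosin IIB and IIC, *MYH10* and *MYH14*, both rose, from 19.2 ± 3.26 to 24.8 ± 1.05 CPM (SD, n = 3) and from 11.0 ± 0.866 to 15.5 ± 1.12 CPM (SD, n = 3). Their log2 fold changes were 0.36 and 0.50 (unrounded just under the minimum of 0.5), with adjusted p = 0.0158 and 0.0034 from edgeR. *MYH9* still took 94.4% of the counts of the 3 heavy chain genes in Dsg2KO cells, against 95.6% in A431CT cells (exact permutation p = 0.1, adjusted 0.11).

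*MYL9* (chromosome 20, 36541497 to 36551447, plus strand) encodes a regulatory light chain that is abundant in smooth muscle. Its levels were 83.9, 86.0 and 85.8 CPM in A431CT and 81.3, 79.1 and 77.0 CPM in Dsg2KO cells. The Dsg2KO libraries all lay below the A431CT libraries, and the log2 fold change of -0.11 (95% interval -0.21 to -0.0093) had an adjusted p-value of 0.0944 (edgeR's quasi-likelihood test). *MYL12A*, which encodes a closely related light chain, rose from 158 ± 2.30 to 181 ± 11.7 CPM (SD, n = 3), or by 0.20 on the log2 scale (adjusted p = 0.0058, edgeR). *MYL12B*, the third of these genes, was at 351 and 344 CPM. Of the counts of these 3 genes, *MYL9* took 14.3% in A431CT and 13.1% in Dsg2KO cells and *MYL12A* 26.6% and 29.9%, with no overlap between the libraries (exact permutation p = 0.1, adjusted 0.11, for each share). Among all 8 genes of non-muscle myosin II chains, 3 rose and 0 fell, against 14.3% and 15.3% of all genes tested. Their median log2 fold change was 0.0095. The lowest values were those of *MYL6B* and *MYL6*, -0.12 each (edgeR adjusted p = 0.41 and 0.071).

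Of the tropomyosin genes *TPM1* rose, *TPM2* and *TPM4* fell on the TMM scale (both near 0 or above it on the *GAPDH* scale), and *TPM1* showed the highest percentage change of the genes that passed. Tropomyosins are coiled-coil dimers that lie along the filament and set which myosins and severing proteins can reach it. *TPM1* (chromosome 15, 63042620 to 63071915, plus strand) was at 149, 145 and 147 CPM in A431CT cells and at 191, 193 and 213 CPM in Dsg2KO cells. Every Dsg2KO library lay above every A431CT library. The mean was 35.3% higher, at a log2 fold change of 0.44 with a 95% interval of 0.34 to 0.54 (edgeR adjusted p = 6.61e-06), so the interval spans the fold minimum of 0.5.

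*TPM2* (chromosome 9, 35681992 to 35690056, minus strand) was at 136, 140 and 124 CPM in A431CT and at 116, 116 and 114 CPM in Dsg2KO cells. The conditions did not overlap, with A431CT replicate 3 nearest to the Dsg2KO libraries, and the log2 fold change of -0.21 had a standard error of 0.05 (edgeR adjusted p = 0.0042). *TPM4* (chromosome 19, 16067021 to 16103002, plus strand), the tropomyosin gene with the most counts in A431CT replicates 1 and 2, was at 512, 519 and 499 CPM and at 426, 430 and 439 CPM. The mean of *TPM4* fell by 15.4%, or -0.24 ± 0.03 on the log2 scale (standard error, edgeR adjusted p = 8.23e-05). *TPM3*, which is not among the 9 genes, was at 509 ± 6.55 and 492 ± 14.4 CPM (SD, n = 3), a log2 fold change of -0.05 with an adjusted p-value of 0.32.

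Within each library the tropomyosin counts were also compared with each other, which needs no scaling. *TPM1* took 11.4%, 10.9% and 11.5% of the counts of *TPM1* to *TPM4* in A431CT and 15.8%, 15.5% and 16.8% in Dsg2KO cells, and *TPM4* took 39.3%, 39.3% and 39.1% against 35.3%, 34.7% and 34.7%. *TPM2* took 10.3% and 9.33%, and *TPM3* 39.2% and 39.8%, on average. The shares of *TPM1*, *TPM2* and *TPM4* did not overlap between the conditions (exact permutation p = 0.1, adjusted 0.11, each), and the share of *TPM3* did (p = 0.3, exact permutation test). Per count of *TPM4* there were 0.288 ± 0.00839 counts of *TPM1* in A431CT and 0.460 ± 0.0213 in Dsg2KO cells (SD, n = 3).

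**Figure D2:**
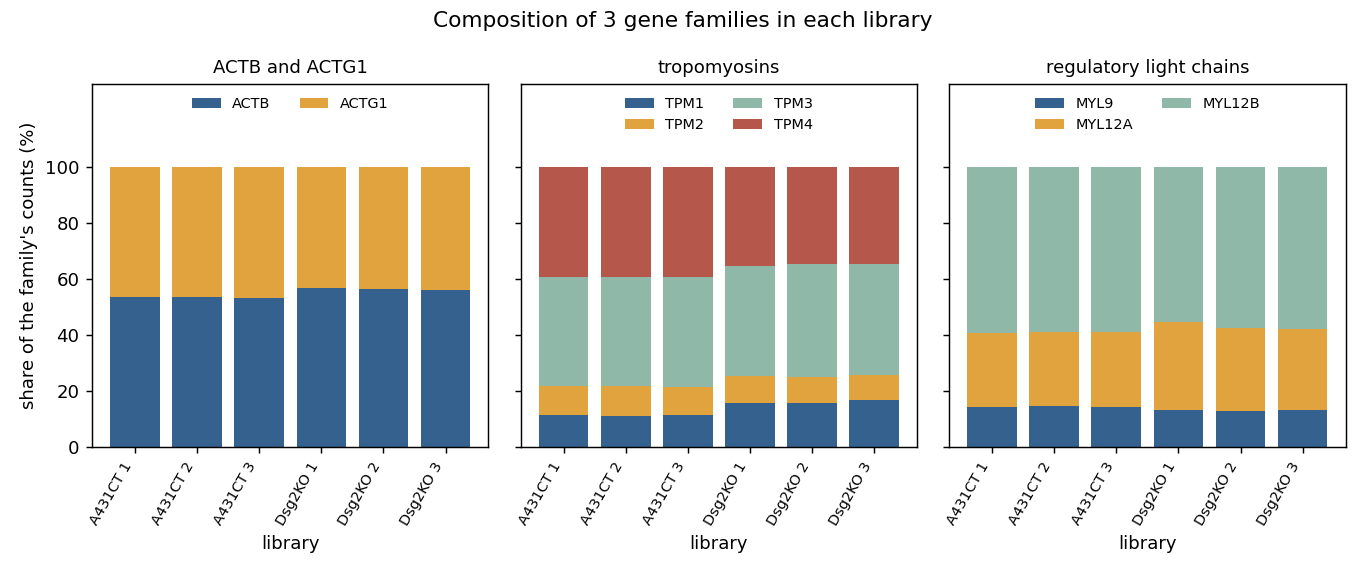
Share of each gene in the counts of its family, in percent, stacked for each of the 6 libraries and for 3 families. The share of *TPM1* is larger and those of *TPM4* and *ACTG1* are smaller in every Dsg2KO library than in any A431CT library, and these shares do not depend on the scaling of the libraries.

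Of the genes that bundle or stiffen filaments, *FLNA* fell and *TAGLN* missed the test. *FLNA* (chromosome X, 154348524 to 154374634, minus strand) encodes filamin A, which joins filaments into orthogonal networks and ties them to integrins. It was at 1300, 1293 and 1416 CPM in A431CT and at 1162, 1165 and 1229 CPM in Dsg2KO cells. The libraries did not overlap, and the mean fell by 11.3%, or -0.17 ± 0.04 on the log2 scale (standard error, edgeR adjusted p = 0.0027). *FLNC* had at most 3 counts in any library.

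*TAGLN* (chromosome 11, 117199370 to 117207464, plus strand) encodes transgelin, a filament-binding protein known as SM22α and used as a marker of smooth muscle and of MRTF and SRF activity. It had 51, 77 and 60 counts in A431CT and 116, 125 and 84 counts in Dsg2KO cells, or 4.01, 5.68 and 4.65 CPM and 7.78, 7.65 and 5.19 CPM. Dsg2KO replicate 3 lay below A431CT replicate 2, so the conditions overlapped. The log2 fold change of 0.52 had a 95% interval of 0.09 to 0.95 and an adjusted p-value of 0.0669 (edgeR's quasi-likelihood test). Leaving out A431CT replicate 2 moved the value to 0.66 (edgeR adjusted p = 0.0399), and leaving out Dsg2KO replicate 3 moved it to 0.69 (edgeR adjusted p = 0.0195). Over the alternatives other than the *GAPDH* scale its adjusted p-values lay between 0.0195 and 0.218.

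Exons of *PCSK7* overlap those of *TAGLN* on the opposite strand in GENCODE version 44, and *PCSK7* itself rose, with a log2 fold change of 0.26 (adjusted p = 0.0289, edgeR) at a mean of 289 counts. The part of such reads in the *TAGLN* counts was not tested. Because *TAGLN* and *MYL9* are known from smooth muscle, markers of that cell type were set beside them. The summed level of 7 smooth muscle markers lay between 6.71 and 7.24 CPM in A431CT and between 5.01 and 7.71 CPM in Dsg2KO cells. Most of this sum came from *MYH11*, with 33 to 62 counts, and *SYNPO2*, with 32 to 60 counts, neither of which passed the test. Of the others *CNN1* and *ACTG2* had no count in any library, *DES* had at most 2, *LMOD1* at most 5 and *ACTA2* at most 9. Their part in the *TAGLN* and *MYL9* values was not tested. Of 8 fibroblast markers, 5 were at or under 3 counts in every library. The sum of all 8 was between 1.98 and 4.43 CPM over all 6 libraries, most of it from *COL1A1*, with 23 to 50 counts.

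The genes covered a wide range of levels. Per kilobase of the MANE Select transcript of each gene, which is one reference transcript and not a measured isoform, *ACTB* was at 2571 ± 9.27 and *ACTG1* at 2115 ± 4.24 CPM per kilobase in A431CT cells (SD, n = 3). On this scale they were followed by *TPM4* at 206, *FLNA* at 157, *TPM1* at 121, *TPM2* at 112, *MYH9* at 89.0, *MYL9* at 30.6 and *TAGLN* at 1.26 CPM per kilobase. *TPM1* and *TPM2* lay close together there, at 121 ± 1.75 and 112 ± 7.01. In Dsg2KO cells *TPM1* stood at 163 ± 9.99 CPM per kilobase, above *FLNA* at 139 ± 4.42 and near *TPM4* at 174 ± 2.65, while *TPM2* at 97.0 ± 0.812 and *MYH9* at 92.1 ± 3.06 were neighbours in the order. The 9 genes together held 1.15% of all counts in A431CT and 1.06% in Dsg2KO cells, 75.2% and 74.3% of them from the 2 actin genes. The ratio of their summed CPM, Dsg2KO to A431CT, was 0.908, with no overlap between the libraries (exact permutation p = 0.1, adjusted 0.114 over 8 such values).

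At some of these loci most neighbouring genes on the chromosome had values of the same sign. Around each gene, the median log2 fold change of the 25 nearest tested genes on each side was taken. Around *ACTG1*, near the end of the long arm of chromosome 17, this median was -0.17, and 42 of the 50 neighbours were lower in Dsg2KO cells. Around *MYL9* on chromosome 20 it was -0.20, and 44 of the 50 neighbours were lower, so that *MYL9* lay 0.09 above its neighbours on the log2 scale. *TPM1*, with a neighbour median of 0.02 (-0.030 with 10 genes on each side), *TPM2*, with -0.02, and *TPM4*, with -0.06, differed from their neighbours by 0.42, -0.19 and -0.18. The median was -0.02 around *ACTB*, -0.07 around *FLNA*, 0.04 around *TAGLN* and 0.05 around *MYH9*. *ACTG1* itself lay 0.08 under its neighbours (log2 fold change less neighbour median -0.08). The part of such regional shifts in the level of a single gene was not tested.

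**Figure D3:**
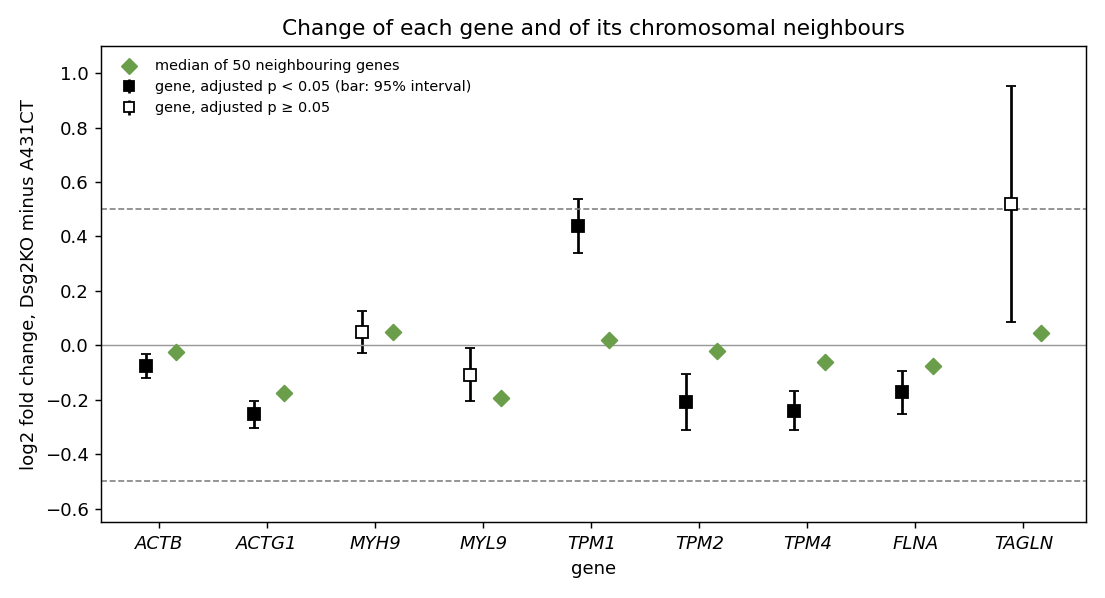
Log2 fold change of each gene with its 95% interval (squares, filled where the adjusted p-value was under 0.05) and the median log2 fold change of its 50 neighbouring tested genes (diamonds), on the TMM scale; dashed lines mark the fold minimum of 0.5. *TPM1* at 0.44 stands far from its neighbours at 0.02, while *ACTG1* at -0.25 and *MYL9* at -0.11 lie in surroundings at -0.17 and -0.20, and all values turn upward by about the same amount when counts are scaled to *GAPDH*.

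RLE, total-count and upper-quartile scaling kept the sign of all 9 genes, while scaling to *GAPDH* moved every gene upward. *GAPDH*, a glycolytic enzyme and the reference gene of the study's qPCR, fell from 3412 ± 46.6 to 2824 ± 86.1 CPM (SD, n = 3), or -0.27 on the log2 scale (edgeR adjusted p = 3.23e-06). Per count of *GAPDH*, there were 1.37, 1.35 and 1.38 counts of *ACTB* in A431CT and 1.54, 1.53 and 1.63 in Dsg2KO cells. Set against *GAPDH*, *ACTB* was thus higher in 3 of 3 Dsg2KO libraries (exact permutation p = 0.1, adjusted 0.114), while the counts of *ACTG1* per count of *GAPDH* overlapped (1.19 ± 0.0160 and 1.21 ± 0.0547, p = 0.9, exact permutation test). With all counts scaled to *GAPDH* the median log2 fold change of all genes tested moved to 0.27, the log2 fold changes of *ACTB*, *ACTG1*, *MYL9*, *TPM2*, *TPM4* and *FLNA* turned positive, and relative to that median these 6 genes stayed below it. On the *GAPDH* scale 5 of the 9 genes rose and 0 fell by the adjusted p-value. Among them were *MYH9* at 0.32 (edgeR adjusted p = 1.9e-05) and *MYL9* at 0.17 (edgeR adjusted p = 0.0129). Of 13 genes in common use as references, 2 rose and 6 fell by the adjusted p-value on the TMM scale, against 29.6% of all genes tested in either direction. Among genes tested with a mean level of at least 50 CPM this share was 41.0%. None of the 13 reference genes reached the fold minimum.

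Beyond the 9 genes, 106 other genes of the actin cytoskeleton were grouped by role, of which 97 were tested. By the adjusted p-value 22 rose, 14 fell and 61 did neither, against 29.6% of all genes tested in either direction. Among genes tested with a mean level of at least 50 CPM this share was 41.0%. The median log2 fold change of the 97 genes was 0.02. Past both thresholds there were 3 genes (5 without A431CT replicate 2), against 6.03% of all genes tested, and all 3 belong to nucleation and elongation. *EVL*, of the Ena/VASP family that extends filaments at their growing ends, rose from 2.95 ± 0.641 to 6.18 ± 0.852 CPM (SD, n = 3), or 1.07 on the log2 scale (adjusted p = 0.0016, edgeR). *DIAPH3*, a formin that nucleates unbranched filaments, rose from 29.96 ± 1.32 to 45.9 ± 3.49 CPM, or 0.62 on the log2 scale. *WASF2*, a subunit of the WAVE complex that activates Arp2/3, fell from 362 ± 6.30 to 230 ± 6.20 CPM, or -0.65 on the log2 scale, on a stretch of chromosome 1 whose 50 neighbouring genes had a median of -0.35.

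**Figure D4:**
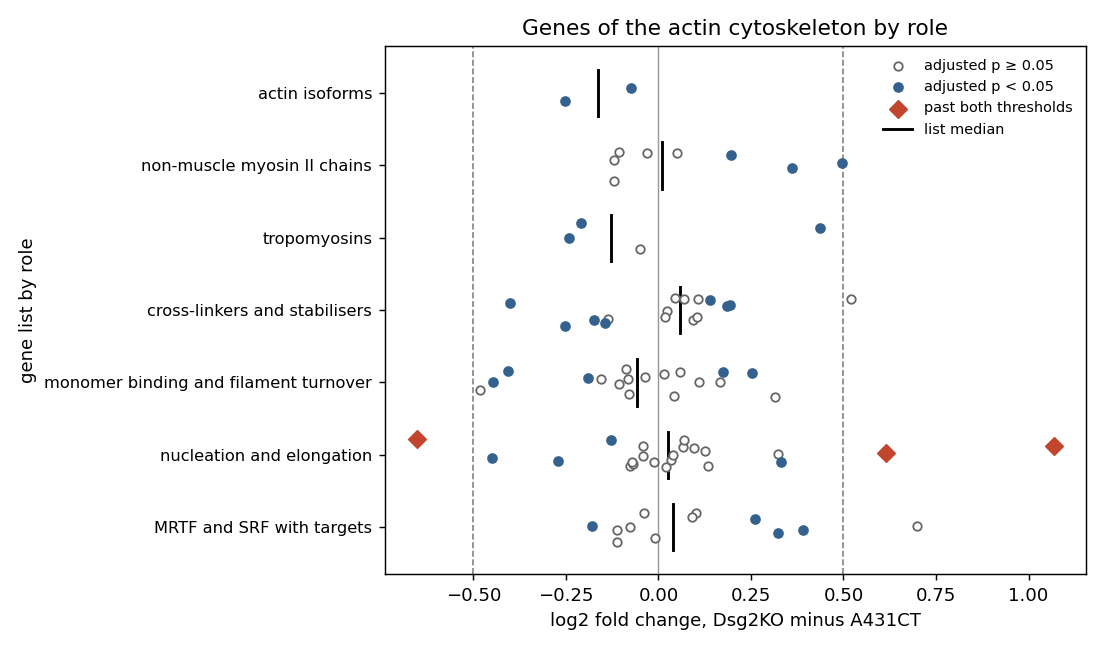
Log2 fold change on the TMM scale of each tested gene of 7 lists of actin cytoskeleton genes, the 9 genes included, with black lines for list medians and dashed lines for the fold minimum of 0.5. Diamonds mark *WASF2*, *DIAPH3* and *EVL*, the 3 genes past both thresholds, and list medians run from -0.16 for the actins to 0.06 for the cross-linkers and stabilisers.

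In the list of nucleation and elongation, 3 of 22 tested genes rose and 4 fell by the adjusted p-value, a share near the 29.6% of all genes tested. Of the Arp2/3 subunits, which make the branched networks of lamellipodia, 2 of 9 fell, against 15.3% of all genes tested. These were *ARPC3* and *ARPC1A*, with log2 fold changes of -0.45 and -0.27. The other 7 did not pass the test and lay between -0.08 for *ARPC2* and 0.07 for *ARPC5L*. The neighbours of *ARPC3* had a median of -0.18. Among 16 tested cross-linkers and stabilisers, *FLNA* and *TAGLN* included, 3 rose and 4 fell, against 29.6% of all genes tested. *LCP1*, the bundling protein L-plastin, fell by 0.40 on the log2 scale, from 573 ± 24.5 to 434 ± 2.74 CPM (SD, n = 3), and its neighbours on chromosome 13 had a median of -0.25. *FSCN1*, the filopodial bundler fascin, fell by 0.25 on the log2 scale.

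Genes that bind monomers or turn filaments over held 2 genes that rose and 3 that fell among 18, a share near the 29.6% of all genes tested. The barbed-end capping subunit *CAPZB* and the cyclase-associated protein *CAP1* fell, with log2 fold changes of -0.45 and -0.41, and both lie on chromosome 1 among neighbours with medians of -0.32 and -0.27. *CAPZA1*, which encodes the partner subunit of *CAPZB*, rose with a log2 fold change of 0.17, among neighbours at 0.21, and the filament-binding *COTL1* rose with 0.25, among neighbours at 0.24. *GSN*, the severing protein gelsolin, had the lowest value of this list, -0.48, with an adjusted p-value of 0.0559. The highest was *CFL1* at 0.32 (adjusted p = 0.63), on no more than 29 counts in any library.

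*SRF* and its coactivators did not pass the test, with log2 fold changes of -0.08 for *SRF* (95% interval -0.16 to 0.0053), -0.04 for *MRTFA* and -0.0087 for *MRTFB*. Together with 11 genes known as their targets they form a list of 14, of which 12 were tested, 3 rose and 1 fell, a share near the 29.6% of all genes tested. *ZYX*, which encodes the focal adhesion protein zyxin, rose from 132 ± 4.17 to 165 ± 5.69 CPM (SD, n = 3), or by 0.32 on the log2 scale. *FHL1* and *PDLIM7* rose with log2 fold changes of 0.39 and 0.26, and *FBLIM1* fell, with -0.18, among neighbours at -0.29. *ANKRD1* had the highest value, 0.70, on 10 to 49 counts (adjusted p = 0.15), and *VCL*, which encodes vinculin, was at 0.10 (adjusted p = 0.0903). *CCN2* had no count in any library.

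The levels of *ACTG1* and *TPM1*, the 2 genes with the smallest p-values, were set against all other tested genes over the 6 libraries. The closest to *ACTG1* by Pearson's r of log2 CPM were *IFI27L2*, *ZNF726* and *GTF3A*, with r of 0.999, 0.998 and 0.998. The closest to *TPM1* were *ARHGAP29*, *PRPS2* and *PKDCC*, each with an r of 0.996. These values rest on 6 libraries in 2 conditions, so a gene that differs between the lines with little spread will score high.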

How the data were processed

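RNA from 3 A431CT and 3 Dsg2KO samples was sequenced as paired-end reads. The authors removed adapters and low-quality reads, aligned them to GRCh38 in CLC Genomics Workbench (version 23) and deposited raw counts per gene symbol, without normalization. The gene annotation and strand setting are not given in the sources used here. Libraries held 12845719 to 16255692 counts, and floors (3 counts) cover counting error only, while the 95% intervals of fold changes come from the edgeR fit and include the spread between libraries. Libraries of one line were not copies of each other, with a chi-square per degree of freedom of 2.66 to 4.20 between them.

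Counts were scaled by TMM and filtered with filterByExpr (minimum count 10). They were fitted with edgeR 4.0.16 in R 4.3.3 (quasi-likelihood, no covariates), and p-values were adjusted over all 12857 genes tested. Log2 CPM used a prior count of 2. The fit was run on simulated data with 200 changed genes, all changed by more than the fold minimum, so smaller changes were not tested there. DESeq2 1.42.0 was an alternative. Standard errors are the fold change over the root of F. Family shares and sums were compared with exact permutation tests. GENCODE version 44 gave positions for 12237 of the tested genes, and RefSeq (GRCh38.p14) gave promoters. Figures used matplotlib 3.10.9.

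The 9 genes and the lists were chosen with earlier results of these data known. Named are *DSG2*, the 9 genes, the genes of each role list past both thresholds or at its extremes, the 3 genes most alike to each of 2 genes, and *GAPDH*. Other list members and overlapping genes were named after their values were seen. The counts over all 106 other genes include 1 role list and some single genes that are not reported here.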

Additional observations from a re-analysis of the deposited data

How the results depend on the processing

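Of 126 log2 fold changes of the 9 genes under the alternatives set at the start, 118 kept their direction and their side of the adjusted p-value, 5 (all *ACTB*) lost it, 3 (all *TAGLN*) gained it and 0 reversed. Scaling to *GAPDH*, chosen after seeing the data, moved *ACTB* to 0.20, *ACTG1* to 0.021, *MYL9* to 0.17, *TPM2* to 0.065, *TPM4* to 0.033 and *FLNA* to 0.10, since it raised the median of all genes by about 0.27. It gave 1855 genes past both thresholds, 92.1% of them higher, against 775 genes and 49.7%, with 2 of the 9 genes and 15 of the 106 other genes. No fold minimum gave 3802, 6 and 36, and a minimum of 1 gave 250, 0 and 1. Without the low-count filter 1 of the 9 genes (*TAGLN*) and 5 of the others passed. With 1 library left out, 0 to 1 of the 9 and 3 to 5 of the others passed both thresholds, and 5 to 7 of the 9 passed the adjusted p-value. Around *ACTB* the neighbour median was -0.0010 with 10 genes on each side and -0.042 with 50. With 10 it was -0.030 around *TPM1*, -0.037 around *TPM2*, -0.10 around *FLNA* and 0.019 around *TAGLN*, and with 50 it was -0.17 around *MYL9* and -0.033 around *FLNA*. The labels give replicate numbers but no shared batch, and same-numbered libraries did not deviate together (r -0.0027 to 0.0539, not the best match for every library). A replicate block gave 769 genes, 747 of them among the 775, 0 of the 9 past both thresholds and 6 past the adjusted p-value. Depth limits *TAGLN* most, with 51 to 125 counts.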

Other observations

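*CFL1*, which encodes the filament-severing protein cofilin, had between 7 and 29 counts per library, while its relatives *CFL2* and *DSTN* had 564 to 827 and 4068 to 5079 counts. *CCN2*, a target of SRF and YAP, had 0 counts in every library, while *CCN1* had 1686 to 2175. *KRT14*, a basal keratin, had at most 2 counts, while its partner *KRT5* had 8191 to 9596. Whether these values reflect the cells or the assignment of reads was not tested.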
